A study of Mus musculus with 21 samples.

Results

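The genes described here mark the fast transmitter systems of the mouse midbrain: GABA (Gad1, Gad2, Slc32a1 and, as a marker of 1 class of GABA neurons, Pvalb), glutamate (Slc17a6, Slc17a7 and Slc17a8) and acetylcholine (Chat, Slc18a3 and Slc5a7). They were taken by gene symbol, and all 10 were present among the 33829 genes of the first deposited table and the 55385 genes of the second. RNA from the midbrain of 21 male C57BL/6 mice aged 6 weeks was sequenced in 2 experiments, with 3 mice in each of 7 groups. The study asked whether irisin, a hormone released from muscle, alters the response to MPTP, a compound converted in the brain to a toxin of dopaminergic neurons. In the pre-treatment experiment, control mice were injected intraperitoneally with ddH2O for 10 days, MPTP mice received ddH2O for 5 days and then MPTP at 30 mg/kg daily for 5 days, and irisin-pretreated mice received irisin at 200 µg/kg daily for 5 days and then the same MPTP course. In the delayed experiment, control mice again received ddH2O for 10 days, irisin-alone mice received ddH2O and then irisin, MPTP mice received MPTP and then ddH2O, and irisin-treated MPTP mice received MPTP and then irisin, each agent for 5 days at the doses above. By the study's methods the nigra was cut out by hand, and how much tissue around it came along in each mouse is not given.

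GABA neurons make their transmitter with glutamate decarboxylase, load it into vesicles through a transporter shared with glycine neurons, and in the substantia nigra pars reticulata form the output of the basal ganglia. Glutamate neurons are told apart by which vesicular transporter they use: VGLUT2 (Slc17a6) in most of the thalamus, hypothalamus and midbrain, VGLUT1 (Slc17a7) in cortex, hippocampus, cerebellar granule cells and pontine nuclei, and VGLUT3 (Slc17a8) in scattered cells that include many serotonergic neurons of the raphe. Acetylcholine neurons of this region lie in the oculomotor and trochlear nuclei and in the pedunculopontine area; they make acetylcholine with choline acetyltransferase (Chat), load it with the vesicular transporter VAChT (Slc18a3) and take choline back up through Slc5a7. In bulk tissue, fewer cells of a type cannot be told apart from less RNA in each cell.

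In the GRCm38 coordinates of the tables, 3 of the GABA genes lie on chromosome 2: Gad1 at chr2:70553072-70602014, Gad2 at chr2:22622205-22693874 and Slc32a1 at chr2:158610767-158615748, all on the plus strand. Pvalb lies at chr15:78191114-78206400 on the minus strand. Slc17a6 (chr7:51622006-51671119) and Slc17a7 (chr7:45163949-45176142) are on the plus strand and Slc17a8 (chr10:89574020-89621253) is on the minus strand. Slc5a7 occupies chr17:54273590-54299034 on the minus strand. Slc18a3 (chr14:32462438-32464850) lies wholly inside Chat (chr14:32408203-32465957) on the same minus strand, an arrangement known as the cholinergic gene locus. How reads over both genes were assigned is not given in the sources used here, so their separate counts are uncertain to that extent. Whether strand was used in counting is not stated either: antisense genes overlap Gad1 (Gad1os, 0 to 31 counts per mouse), Chat (Gm2990, 11 to 81 counts) and Slc32a1 (Gm14205, 0 to 2 counts).

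The 250 bases before the start of the 3 acetylcholine genes are shown. They were chosen after the values were seen, in which Chat and Slc18a3 moved together across mice while Slc5a7 departed from them in 3 mice. They are RefSeq windows on GRCm38.p6, minus strand, at chr14:32465910-32466159 for Chat, chr14:32464851-32465100 for Slc18a3 and chr17:54299035-54299284 for Slc5a7. The RefSeq start of Chat is not the end of the gene given in the tables. Capitals mark TGACG or its reverse complement CGTCA, the core shared by cAMP response elements, searched on both strands.
Chat: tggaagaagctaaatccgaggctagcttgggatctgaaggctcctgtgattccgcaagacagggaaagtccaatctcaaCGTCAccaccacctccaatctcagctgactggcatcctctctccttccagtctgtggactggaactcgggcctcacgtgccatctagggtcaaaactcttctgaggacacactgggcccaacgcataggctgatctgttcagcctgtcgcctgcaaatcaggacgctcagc
Slc18a3: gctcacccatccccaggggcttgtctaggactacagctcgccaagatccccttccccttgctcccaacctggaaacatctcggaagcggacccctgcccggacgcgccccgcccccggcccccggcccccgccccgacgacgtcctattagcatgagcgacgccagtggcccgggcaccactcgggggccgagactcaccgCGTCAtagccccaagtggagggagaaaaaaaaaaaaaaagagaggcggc
Slc5a7: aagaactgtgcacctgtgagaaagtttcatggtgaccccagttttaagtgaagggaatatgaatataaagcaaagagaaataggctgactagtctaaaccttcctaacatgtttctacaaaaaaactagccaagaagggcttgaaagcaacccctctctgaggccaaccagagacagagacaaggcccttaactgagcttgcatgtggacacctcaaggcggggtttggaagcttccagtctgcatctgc
The motif began 171 bases before the start of Chat and 49 bases before that of Slc18a3, and was not among the letters of the Slc5a7 window. It is common, being held by 17.8% of 32851 windows of the same length. Whether the motif bears on the levels of these genes was not tested. The windows differed in CG dinucleotides, with 8 in Chat, 21 in Slc18a3 and 1 in Slc5a7, against a median of 6 over all windows. The Slc18a3 window also lies within Chat itself.

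The 9 libraries of the first experiment held 66653781 to 75637604 counts each, and the 12 of the second held 48843585 to 77203445 counts. Dopaminergic markers were present in every group, with Th (tyrosine hydroxylase) between 7.89 and 23.5 FPKM and the dopamine transporter Slc6a3 between 3.96 and 27.3 FPKM. FPKM, the deposited unit, corrects fragment counts for sequencing depth and gene length. In the delayed experiment 5 of 10 dopaminergic genes had an unadjusted p under 0.05 toward lower levels in MPTP than in control mice (median log2 fold change of the list -0.49), where 8.33% of all genes had such a p in either direction. In the pre-treatment experiment 1 of 10 did (Slc6a3; median 0.16), against 6.03% of all genes. None of them passed the adjusted threshold. RNA of tissue outside the nigra varied as well: the choroid plexus gene Ttr ranged from 2.06 to 1168 FPKM in the pre-treatment experiment. Nothing in the labels says whether the 3 mice of a group were handled separately, so the p-values measure the spread between these mice.

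Per length of gene, the GABA and VGLUT2 transcripts were abundant and the others were not. In the pre-treatment experiment mean FPKM over 9 mice fell in the order Pvalb (105 ± 13.2, SD), Gad2 (64.0 ± 6.51), Slc17a6 (53.0 ± 7.64), Gad1 (50.8 ± 9.02), Slc32a1 (31.4 ± 1.48), Slc17a7 (6.27 ± 3.96), Slc5a7 (3.64 ± 2.08), Slc17a8 (2.05 ± 1.91), Slc18a3 (2.04 ± 0.927) and Chat (1.30 ± 0.448). Pvalb, which encodes the calcium-binding protein parvalbumin, was above Gad2 in 9 of 9 mice without overlap of the ranges. Slc17a6 and Gad1 overlapped, as did all neighbours from Slc17a7 downward.

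Over the 12 mice of the second experiment the order was Pvalb (144 ± 15.6), Slc32a1 (50.6 ± 3.61), Gad1 (46.3 ± 2.84), Gad2 (44.7 ± 4.79), Slc17a6 (41.8 ± 4.12), Slc17a7 (17.2 ± 3.11), Slc18a3 (6.39 ± 1.40), Slc5a7 (5.79 ± 1.71), Chat (2.94 ± 0.443) and Slc17a8 (1.46 ± 0.934). The 4 genes from Slc32a1 to Slc17a6 overlapped with their neighbours, whereas Slc17a7 stood apart on both sides. The tables were made separately, so the 2 experiments were set side by side without a test. Within each mouse, Slc32a1 (the vesicular GABA transporter) stood at 0.422 to 0.576 of the Gad2 level in the first experiment and at 0.897 to 1.62 in the delayed experiment. The ratio of Gad1 to Gad2 was 0.616 to 0.897 in the first and 0.930 to 1.16 in the second. Neither pair of ranges overlapped, and the gene lengths implied by counts and FPKM were alike in both tables (3.15 kb for Slc32a1 in each).

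**Figure D1:**
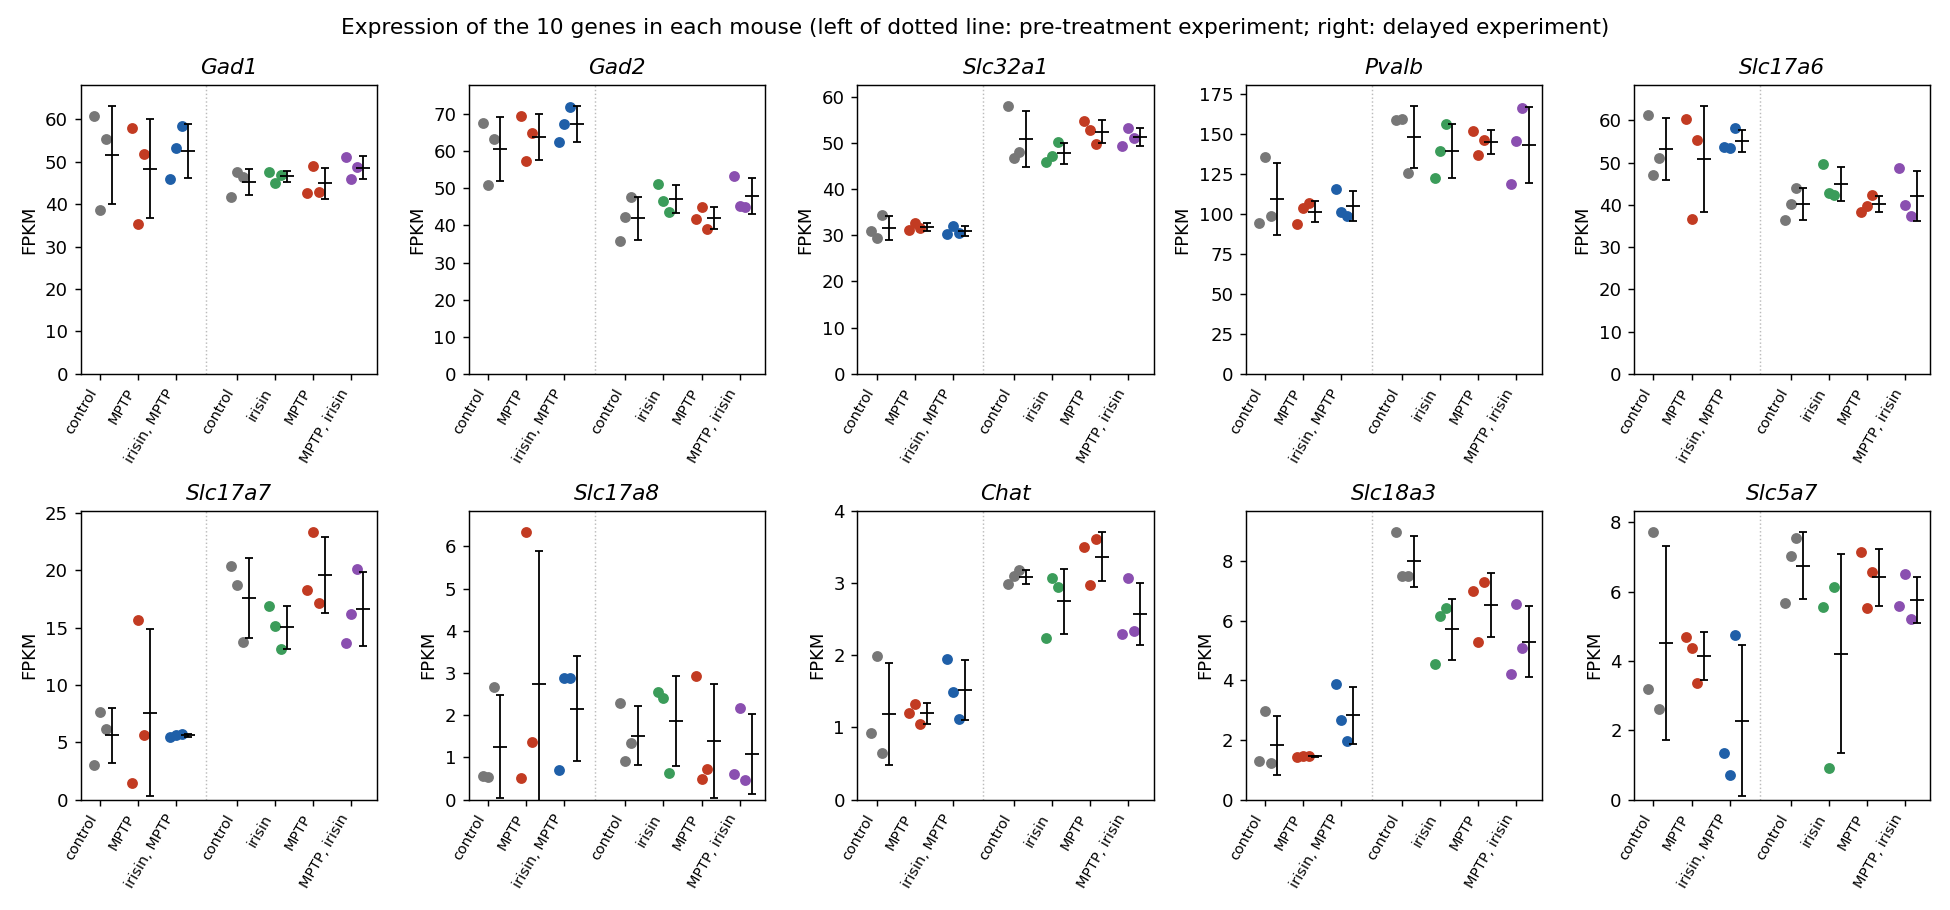
FPKM of each gene (vertical axis, from 0) in every mouse, by group (horizontal axis); dots are mice and black marks are group means with SD bars, cut off at 0 where they would pass it. Slc32a1 stays between 29.4 and 34.3 FPKM in the pre-treatment experiment, while single mice stand apart for Slc17a7 (15.6 FPKM), Slc17a8 (6.34) and Slc5a7 (0.908 in 1 irisin-alone mouse).

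Slc32a1 varied little between mice. It ranged from 29.4 to 34.3 FPKM in the pre-treatment experiment, a 1.17-fold span, and from 45.8 to 57.9 FPKM in the delayed experiment, a 1.26-fold span. The spread between mice that edgeR estimated for it (the biological coefficient of variation) ranked at 3.63% of genes from the lowest in the first experiment. In the second it ranked at 10.8%. In the delayed experiment Gad1 varied less, with a 1.23-fold span and a rank of 5.97%.

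Gad1, which encodes the decarboxylase GAD67 that supplies most of the GABA in the cell body, measured 60.7, 38.5 and 55.3 FPKM in the pre-treatment control mice. It measured 58.0, 35.3 and 51.9 FPKM in the MPTP mice and 45.9, 53.2 and 58.4 FPKM in the irisin-pretreated mice. The 3 groups overlapped, and control replicate 2 and MPTP replicate 2 were the lowest of the 9 mice. In the delayed experiment Gad1 lay between 41.7 and 51.2 FPKM.

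Gad2, which encodes the synaptic decarboxylase GAD65, lay between 51.0 and 72.0 FPKM in the pre-treatment experiment. In the second experiment it measured 35.8, 42.4 and 47.5 FPKM in control mice and 51.1, 46.5 and 43.6 FPKM with irisin alone. It measured 41.9, 44.9 and 39.1 FPKM after MPTP and 53.4, 45.4 and 44.8 FPKM after MPTP and irisin. Pvalb lay between 93.8 and 136 FPKM and between 119 and 166 FPKM in the respective experiments.

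None of the GABA genes passed the test in any comparison. MPTP against control gave log2 fold changes (counts, edgeR quasi-likelihood) of -0.09 ± 0.21 (SE) for Gad1, 0.07 ± 0.11 for Gad2, 0.00 ± 0.06 for Slc32a1 and -0.12 ± 0.15 for Pvalb in the pre-treatment experiment. The delayed experiment gave -0.04 ± 0.07, -0.02 ± 0.11, 0.02 ± 0.08 and -0.05 ± 0.13 for the same genes. Among the GABA genes the intervals were narrowest for Slc32a1. Over 7 comparisons its 95% confidence limits ran from -0.29 to 0.34, which is 0.820-fold to 1.26-fold. For Gad2 they ran from 0.821-fold to 1.35-fold, for Gad1 from 0.678-fold to 1.503-fold and for Pvalb from 0.726-fold to 1.42-fold. Gad2 separated the groups once, being higher in each irisin-treated MPTP mouse but for 44.8 against 44.9 FPKM. On the count scale that pair of groups did not overlap (log2 fold change 0.20 ± 0.11, edgeR adjusted p = 0.9995).

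Among the glutamate genes, Slc17a6 varied least between mice in each experiment, though it ran from 36.5 to 60.3 FPKM within the pre-treatment MPTP group. Slc17a6 lay between 36.5 and 61.4 FPKM in the first experiment and between 36.4 and 49.6 FPKM in the delayed experiment. Its log2 fold changes in 7 comparisons lay between -0.07 and 0.15, with confidence limits from 0.723-fold to 1.43-fold.

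Slc17a7 measured 2.99, 7.67 and 6.17 FPKM in pre-treatment control mice, 1.43, 15.6 and 5.68 FPKM in MPTP mice and 5.48, 5.64 and 5.74 FPKM in irisin-pretreated mice. The lowest and the highest of the 9 mice were both MPTP mice, 10.9-fold apart. The delayed experiment spanned 1.78-fold, from 13.1 to 23.3 FPKM. As a share of the summed VGLUT FPKM, Slc17a6 made up 62.5% to 96.9% (median 87.1%) in the pre-treatment experiment and 61.6% to 77.4% (median 69.4%) in the delayed experiment. Slc17a7 made up 2.30% to 26.7% and 21.7% to 36.7%, respectively.

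By coefficient of variation Slc17a8 varied most among the members, at 93.3% in the first experiment and 64.1% in the second. It measured 0.553, 0.541 and 2.67 FPKM in pre-treatment control mice, 0.509, 6.34 and 1.38 FPKM in MPTP mice and 0.710, 2.89 and 2.88 FPKM in irisin-pretreated mice. In the 12 delayed mice it measured 2.28, 0.921 and 1.34 FPKM in control mice, 2.54, 2.40 and 0.632 FPKM with irisin alone, 2.93, 0.480 and 0.723 FPKM after MPTP and 0.603, 2.17 and 0.469 FPKM after MPTP and irisin. High and low mice occurred in every group of both experiments. The span was 12.5-fold in the first experiment and 6.26-fold in the second, on 136 to 2321 counts per mouse. Through a single mouse, Slc5a7 had a wider span than Slc17a8 in the second experiment (8.32-fold).

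The width of the confidence limits followed that spread. For Slc17a7 they ran from 0.256-fold to 3.89-fold in the pre-treatment experiment, whereas the 3 comparisons between delayed groups gave 0.642-fold to 1.44-fold. For Slc17a8 they ran from 0.121-fold to 10.1-fold over the 7 comparisons, so a change of severalfold in that gene was not detectable here. The log2 fold changes for MPTP against control in the pre-treatment experiment were 0.41 ± 0.68 for Slc17a7 and 1.12 ± 0.97 for Slc17a8, and both turned negative without MPTP replicate 2 (-0.66 ± 0.57 and -0.40 ± 0.87). That mouse held the highest level of both genes and the lowest level of Gad1 and Slc17a6, and it also carried 1168 FPKM of Ttr. The part of neighbouring tissue in these values was not tested.

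The acetylcholine genes gave the 3 differences with an unadjusted p under 0.05, and none of them passed the adjusted threshold of 0.05. Slc18a3 measured 1.43, 1.45 and 1.47 FPKM in pre-treatment MPTP mice and 3.86, 2.67 and 1.97 FPKM in irisin-pretreated mice. Every irisin-pretreated mouse was above every MPTP mouse. The log2 fold change was 0.98 ± 0.38 (edgeR adjusted p = 0.732). Control mice measured 1.28, 2.96 and 1.22 FPKM and overlapped both groups.

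In the delayed experiment Slc18a3 measured 8.98, 7.49 and 7.52 FPKM in control mice and 4.54, 6.18 and 6.44 FPKM with irisin alone. Every irisin-alone mouse was below every control mouse, with a log2 fold change of -0.50 ± 0.19 (edgeR adjusted p = 0.519). It measured 7.01, 5.30 and 7.30 FPKM after MPTP, which was also below the control range (log2 fold change -0.32 ± 0.19, edgeR adjusted p = 0.715). After MPTP and irisin it measured 4.23, 6.58 and 5.09 FPKM, overlapping the MPTP mice. The mean was 5.30 FPKM, against 6.54 FPKM in the MPTP mice (DESeq2 unadjusted p = 0.149). The direction with irisin was thus upward against MPTP in the pre-treatment experiment and downward against control in the delayed experiment. These comparisons have different reference groups, and their difference was not tested.

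Chat measured 2.98, 3.09 and 3.18 FPKM in delayed control mice and 2.23, 3.07 and 2.95 FPKM with irisin alone. It measured 3.504, 2.97 and 3.61 FPKM after MPTP and 2.29, 3.06 and 2.34 FPKM after MPTP and irisin. The groups after MPTP overlapped through a single mouse. The log2 fold change for delayed irisin after MPTP against MPTP was -0.38 ± 0.15 (edgeR adjusted p = 0.9995). In the pre-treatment experiment Chat lay between 0.647 and 1.99 FPKM, both ends of the range being control mice.

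Leaving out single mice moved these 3 estimates without turning their direction. Slc18a3 in irisin-pretreated against MPTP mice ranged from 0.68 to 1.18, the lowest without irisin-pretreated replicate 1. Slc18a3 with irisin alone ranged from -0.60 to -0.36, and Chat from -0.53 to -0.30. The unadjusted p was no longer under 0.05 in 4 of 9 such fits for the first (without any of the 3 MPTP mice or irisin-pretreated replicate 1), in 2 of 12 for the second (without control replicate 1 or irisin-alone replicate 1) and in 4 of 12 for the third (without MPTP replicate 1 or 3 or replicate 1 or 3 of the irisin-treated MPTP mice).

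Other members gained an unadjusted p under 0.05 when a mouse was left out, and none passed the adjusted threshold. Without control replicate 2, Chat (log2 fold change 0.97 ± 0.27) and Slc18a3 (1.20 ± 0.27) did so for irisin-pretreated against control mice. Without control replicate 3 of the delayed experiment, Gad2 (0.26 ± 0.10) and Slc17a7 (-0.39 ± 0.17) joined Slc18a3 for irisin alone, making 3 members. Without irisin-pretreated replicate 3, Slc5a7 was lower in irisin-pretreated than in MPTP mice (-1.99 ± 0.52) and than in control mice (-2.14 ± 0.53). For delayed irisin after MPTP, Gad2, Gad1 and Slc18a3 each joined Chat in 1 such fit.

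Slc5a7 behaved unlike its partners. It measured 3.20, 7.72 and 2.61 FPKM in pre-treatment control mice, 4.70, 4.36 and 3.36 FPKM in MPTP mice and 1.35, 0.708 and 4.76 FPKM in irisin-pretreated mice. In the second experiment it measured 5.57, 0.908 and 6.15 FPKM with irisin alone and between 5.21 and 7.56 FPKM in the other 9 mice. Irisin-alone replicate 2 had 343 counts of Slc5a7, against 1760 or more in the rest of its experiment, while its Chat (3.07 FPKM) and Slc18a3 (6.18 FPKM) were between the lowest and the highest of the other 11 mice.

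The ratio of Slc5a7 to Chat set 3 mice apart. It was 0.296 in that mouse and 0.691 and 0.476 in irisin-pretreated replicates 1 and 2, and it lay between 1.82 and 4.25 in the other 18 mice. All 3 mice had received irisin, as had 6 of the 18 mice with the higher ratio. This division was made after the values were seen and was not tested. The model did not call Slc5a7 in any comparison; its largest estimate was -1.01 ± 0.66 for irisin-pretreated against control mice (edgeR adjusted p = 0.829), with confidence limits from 0.176-fold to 1.41-fold. With irisin alone the Slc5a7 estimate was -0.69 ± 0.49, and -0.21 ± 0.15 without irisin-alone replicate 2.

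**Figure D2:**
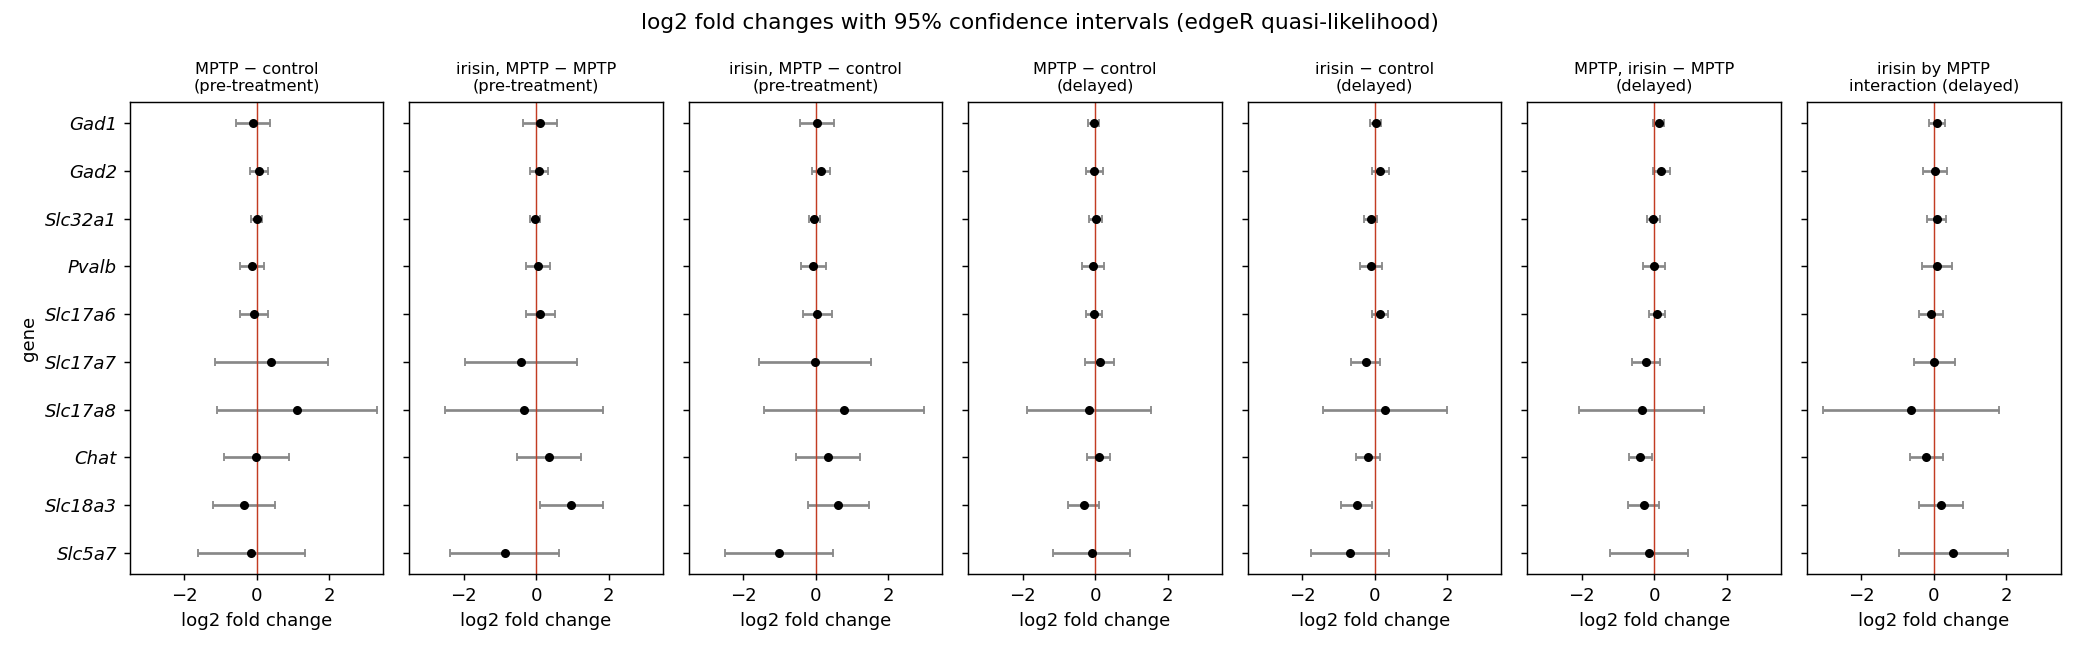
log2 fold changes (horizontal axis) of the 10 genes (vertical axis) in the 7 comparisons from edgeR; points are estimates and bars are 95% confidence intervals. The bars of Gad2 and Slc32a1 stay within -0.28 to 0.43 and -0.29 to 0.34, those of Slc17a8 reach from -3.04 to 3.33, and the bars that miss 0 are those of Slc18a3 (0.98 and -0.50) and Chat (-0.38).

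Counted over all 10 members, 0 were called by edgeR at an adjusted p under 0.05 in each of the 7 comparisons, and DESeq2 called 0 as well. For MPTP against control in the pre-treatment experiment, 0 of 10 members had an unadjusted p under 0.05, where 6.03% of 22641 genes tested did and 0.0221% passed the adjusted threshold. No member separated the 2 groups without overlap, as 11.6% of genes did. For irisin pre-treatment plus MPTP against MPTP, 1 member had an unadjusted p under 0.05 (background 6.22%, with 0.0707% past the adjusted threshold), and 1 member did not overlap (background 14.2%). For irisin pre-treatment plus MPTP against control the counts were 0 (background 7.12%, with 0.0707% past the adjusted threshold) and 0 (background 13.6%).

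For the delayed groups 21922 genes were tested. MPTP against control gave 0 members with an unadjusted p under 0.05 (background 8.33%, with 0.132% past the adjusted threshold) and 1 without overlap (background 16.2%). Irisin alone against control gave 1 (background 8.97%, adjusted 0.109%) and 1 without overlap (background 15.1%). Delayed irisin after MPTP against MPTP gave 1 (background 3.9%, adjusted 0.00456%) and 1 without overlap (background 10.7%). The interaction of irisin and MPTP, which asks whether irisin acts differently in MPTP mice than in control mice, gave 0 (background 5.57%, adjusted 0.0411%). For 10 genes, counts of 0 and 1 are near these backgrounds. The median log2 fold change of the members lay between -0.10 and 0.07 over the 7 comparisons, where the median of all genes tested was never more than 0.004 from 0.

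Of 8 genes for GABA synthesis, transport and breakdown, 13 for glutamate loading, uptake and recycling and 8 for acetylcholine synthesis, transport and breakdown, 0 passed the adjusted threshold in any comparison. At an unadjusted p under 0.05 the GABA list gave at most 1 gene in a comparison. The glutamate list gave at most 2 and the acetylcholine list at most 3. Over all genes tested the share with such a p was 3.9% to 8.97%, depending on the comparison. The 3 acetylcholine genes were Chat and 2 others, lower in delayed irisin after MPTP against MPTP (median log2 fold change of the list -0.18), where that share was 3.9%. Ache, which encodes the enzyme that breaks acetylcholine down, is named here after its values were seen. Its log2 fold change was -0.45 ± 0.09 with irisin alone against control (edgeR adjusted p = 0.157) and -0.28 ± 0.09 for MPTP against control in the delayed experiment (edgeR adjusted p = 0.402). Of 12 genes that mark motor and other cholinergic neurons, 10 were tested in the pre-treatment and 11 in the delayed experiment. Their median log2 fold change was 0.29 for irisin pre-treatment plus MPTP against MPTP, 0.34 against control, -0.34 for irisin alone against control and -0.16 for delayed irisin after MPTP against MPTP, with at most 1 gene at an unadjusted p under 0.05 in each.

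Across mice, the genes of one transmitter did not always vary together. Correlations of log2 CPM (CPM being counts scaled to library size, after TMM adjustment) were computed for the 45 pairs of members in each experiment and adjusted over the 45. Slc5a7 is left for later because of the 3 mice with a low ratio to Chat, a division made after the values were seen. Slc17a8 is also described below, so the text gives the pairs among the other 8 genes. All pairs that passed were among these 8. In the pre-treatment experiment 2 pairs passed an adjusted p of 0.05. These were Gad1 with Slc17a6 (r = 0.89, exact permutation p = 0.00134, adjusted p = 0.0303; rho = 0.83, exact permutation p = 0.00827) and Chat with Slc18a3 (r = 0.87, exact permutation p = 0.000989, adjusted p = 0.0303; rho = 0.85, exact permutation p = 0.00607), each over 9 mice. Without the 2 mice farthest from the median of the first gene, Chat with Slc18a3 kept r = 0.88 (exact permutation p = 0.0105), whereas Gad1 with Slc17a6 fell to r = 0.60 (exact permutation p = 0.156) and thus rested on control replicate 2 and MPTP replicate 2.

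Among the 12 delayed mice 7 pairs passed. Chat again followed Slc18a3 (r = 0.81, permutation p = 0.00181, adjusted p = 0.0288; rho = 0.78, permutation p = 0.00440). Slc18a3 lies inside Chat, and the part of reads over both genes in this correlation was not tested in either experiment. Gad1 followed Gad2 (r = 0.77, permutation p = 0.00314, adjusted p = 0.0288; rho = 0.57, permutation p = 0.0546), and Gad2 followed Slc17a6 (r = 0.78, adjusted p = 0.0288; rho = 0.70). Pairs with opposite variation were Gad2 with Pvalb (r = -0.75, adjusted p = 0.0327; rho = -0.69), Gad2 with Slc18a3 (r = -0.79, adjusted p = 0.0288; rho = -0.65), Slc32a1 with Slc17a6 (r = -0.73, adjusted p = 0.0431; rho = -0.80) and Slc17a6 with Pvalb (r = -0.83, permutation p = 0.000780, adjusted p = 0.0288; rho = -0.73). Without the 2 farthest mice only Gad1 with Gad2 kept a permutation p under 0.05 (r = 0.64, p = 0.0436), and the other 6 had r between 0.54 and 0.63 in size. By Spearman's rho 0 of 45 pairs passed the adjusted threshold in either experiment, with lowest adjusted p-values of 0.0744 and 0.0660.

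Slc32a1 did not follow the decarboxylases. Its r with Gad1 was -0.01 in the first experiment and -0.47 in the delayed experiment, and with Gad2 it was -0.05 and -0.63, none of them past the adjusted threshold. Slc17a6 and Slc17a7 varied in opposite directions in both experiments, with r = -0.83 over 9 mice (exact permutation, adjusted p = 0.101) and r = -0.66 over 12 mice (adjusted p = 0.0818). Neither passed.

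**Figure D3:**
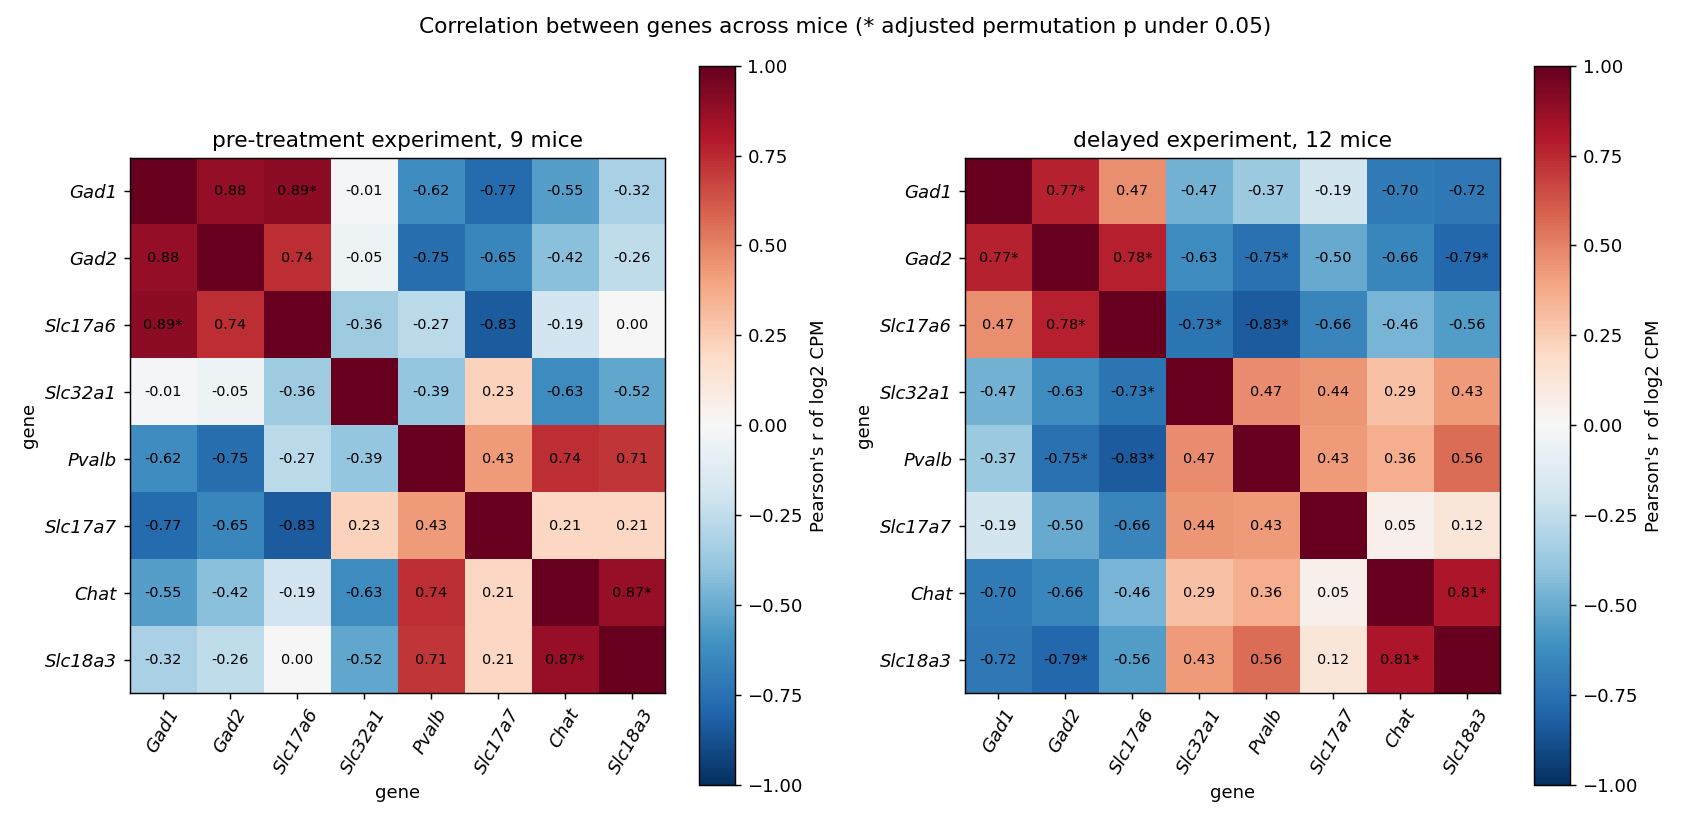
Pearson's r of log2 CPM between pairs of 8 genes (both axes) across 9 mice of the pre-treatment experiment and 12 mice of the delayed experiment; red is positive, blue is negative and asterisks mark an adjusted permutation p under 0.05. Chat with Slc18a3 is positive and marked in both (0.87 and 0.81), and Slc32a1 is not red against Gad1 or Gad2 in either.

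For Slc5a7 the 3 mice with a low ratio to Chat were set aside. Since that ratio chose them, a positive correlation with Chat in the rest is partly built in, and the values are a description. Over the remaining 11 delayed mice the r of Slc5a7 with Chat was 0.75, and over the remaining 7 pre-treatment mice it was 0.95, falling to 0.77 without 2 more.

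To see what else varied with the members, 16 marker lists that hold no member were used. They mark other cell types and regions, and also midbrain GABA neuron regulators, motor and cholinergic neuron identity and neurons in general. Each member was compared with the mean of each list, giving 160 relations in each experiment. This comparison was added after the data were seen. Of these, 15 passed an adjusted p of 0.05 in the first experiment and 4 in the second, and the one that passed in both was Slc17a8 with the serotonergic list (Tph2, Slc6a4, Fev and Slc22a3). Its r was 0.97 over 9 mice (exact permutation p = 0.000226, adjusted p = 0.0104; rho = 0.90, adjusted p = 0.0379) and 0.93 over 12 mice (permutation p = 9.0e-05, adjusted p = 0.0144; rho = 0.82, adjusted p = 0.181). Without the 2 farthest mice r was 0.95 (exact permutation p = 0.00536) and 0.91 (permutation p = 0.00101).

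Other relations were seen in 1 experiment. In the pre-treatment experiment Gad1 followed the list of midbrain GABA neuron regulators such as Gata2, Gata3 and Tal1 (r = 0.98, adjusted p = 0.00639) and, as closely, the thalamus list (r = 0.97, adjusted p = 0.00529) and the striatum list (r = 0.92, adjusted p = 0.0104), and was opposite to the glycine neuron list (r = -0.87, adjusted p = 0.0210) and the cerebellum list (r = -0.88, adjusted p = 0.0309). Gad1 was lowest in control replicate 2 (38.5 FPKM) and MPTP replicate 2 (35.3 FPKM), and these values of r include both mice. In the second experiment its r with the midbrain GABA regulators was 0.50 (adjusted permutation p = 0.468). Chat followed the motor and cholinergic identity list in the pre-treatment experiment (r = 0.91, adjusted p = 0.0210) and had r = 0.46 (adjusted p = 0.477) in the delayed experiment. Gad2 followed the thalamus list in the delayed experiment (r = 0.81, adjusted p = 0.0464), and Pvalb was opposite to it (r = -0.78, adjusted p = 0.0443). How much of the variation in Gad1, Gad2 and Slc17a6 came with tissue from other regions was not tested.

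The genes most like each member were sought among 20760 others, by r over 21 mice after subtracting each experiment's mean. For Slc17a8 they were Tph2 (r = 0.95), which encodes the enzyme that makes serotonin in neurons, the serotonin transporter gene Slc6a4 (0.93) and the neuropeptide gene Cartpt (0.92). Tph2 ranged from 3.59 to 53.6 FPKM in the first experiment and from 5.96 to 37.3 FPKM in the delayed experiment. Its highest mouse was MPTP replicate 2 in the first and MPTP replicate 1 in the second, the same mice that were highest for Slc17a8.

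For Slc17a7 the most alike gene was Neurod2 (0.95), a transcription factor of excitatory neurons, followed by Hoxb4 (0.87), which marks the hindbrain, and Col27a1 (0.86). Within the delayed mice the r of Slc17a7 with these was 0.73 for Neurod2, 0.47 for Hoxb4 and 0.31 for Col27a1, against 0.98, 0.90 and 0.95 within the pre-treatment mice. Levels in the pre-treatment mice were low, at 0 to 0.856 FPKM for Hoxb4, 0.620 to 2.03 FPKM for Col27a1 and 0.441 to 3.78 FPKM for Neurod2. For Chat the most alike genes were the neurofilament gene Nefm (0.92), Acly (0.91) and Prph (0.90). Acly encodes the enzyme that makes cytosolic acetyl-CoA, and Prph encodes the intermediate filament peripherin of motor neurons. Prph also led for Slc18a3 (0.90), before Gpd1 (0.86) and Ahnak2 (0.86).

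Among the remaining members, Gad1 was most like Camkv (0.95), Asic4 (0.93) and Cpe (0.93), and Gad2 was most like Plcb4 (0.92), Hs2st1 (0.91) and Ahi1 (0.90). Slc17a6 was most like the substance P receptor gene Tacr1 (0.93), Grid1 (0.91) and Stxbp6 (0.90). Likeness was lower for Pvalb (Tbcd, 0.87), Slc32a1 (Gm1840, 0.81) and Slc5a7 (Slc35c1, 0.77). With 20760 genes searched over 21 mice, these values are a description.

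**Figure D4:**
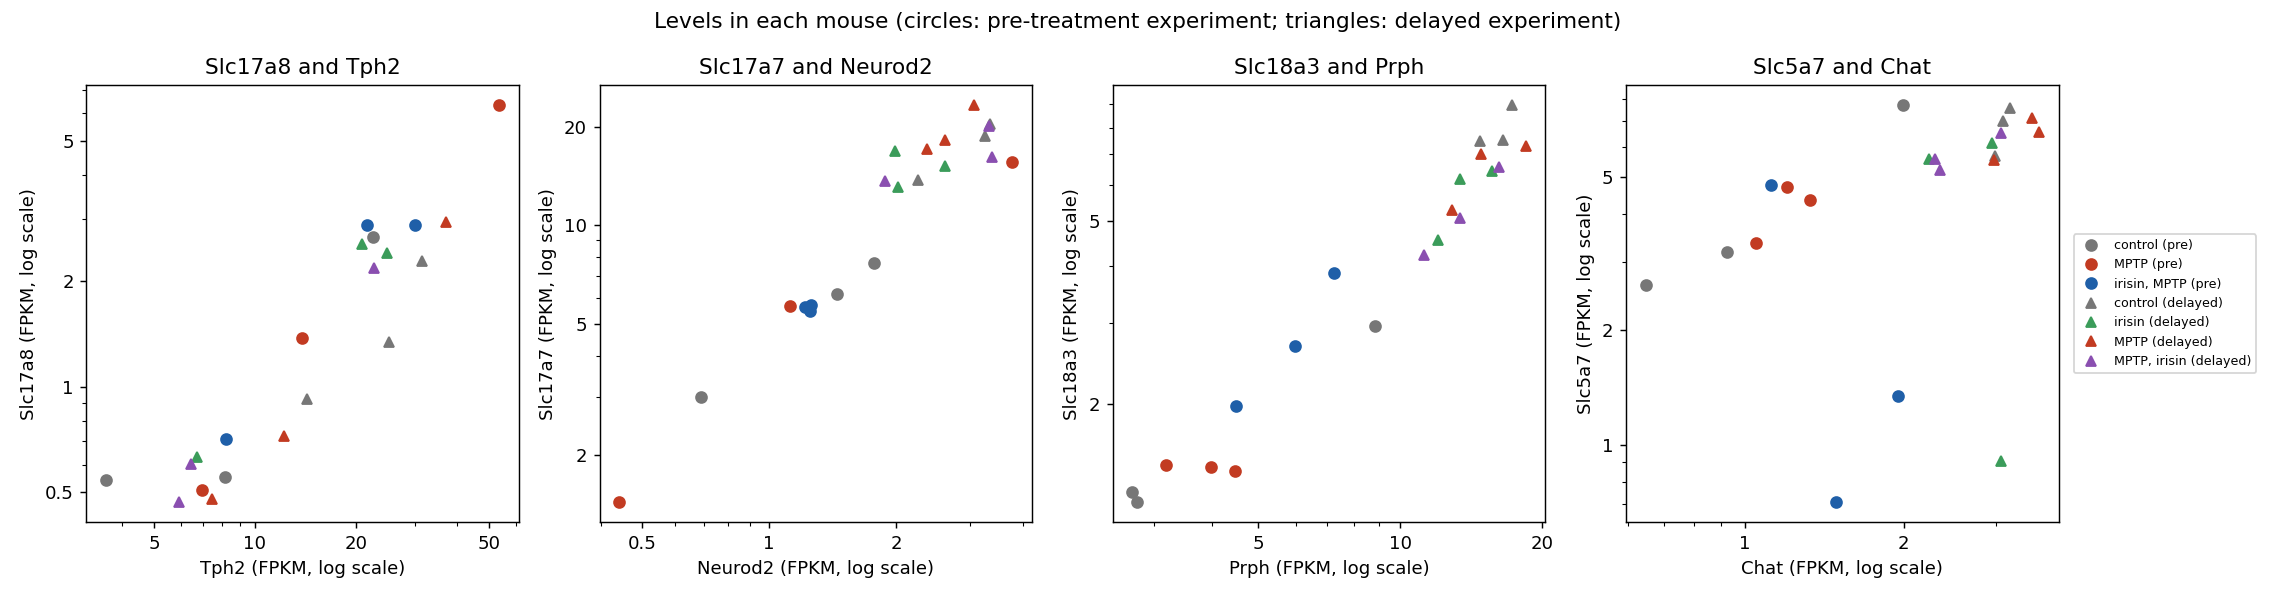
FPKM of 4 members (vertical axes) against another gene (horizontal axes) in each of the 21 mice, all axes on a log scale; circles are the pre-treatment and triangles the delayed experiment. Slc17a8 rises with Tph2 up to 6.34 FPKM at 53.6 FPKM, Slc17a7 with Neurod2 and Slc18a3 with Prph, while 3 mice lie below the rest for Slc5a7 against Chat (0.708, 0.908 and 1.35 FPKM).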

How the data were processed

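Midbrain RNA of 21 mice was sequenced (Illumina NovaSeq, per the study's methods). The authors deposited, for each experiment, a table of raw counts per gene made with featureCounts and FPKM values. The submitters' processing notes name HISAT, StringTie, edgeR and mm9, but the coordinates in the tables are those of GRCm38 (same start and end as GENCODE M21 for 92.0% and 94.3% of shared IDs). The delayed table writes an FPKM of 0.0001 in place of 0. All value columns could be assigned to mice. Counts were tested with edgeR 4.0.16 (filterByExpr, minimum count 10; TMM; quasi-likelihood; all groups of an experiment in 1 fit; Benjamini-Hochberg over all genes, threshold 0.05); all 10 members passed the filter. Each experiment was fitted by itself. Correlations used log2 CPM (prior count 2), with all 362880 pairings for 9 mice and 100000 permutations for 12. All tests were two-sided. Alternatives were DESeq2 1.42.0, limma 3.58.1 on log2(FPKM + 1) and log2(FPKM + 0.1), other scaling and filters, a replicate block and omission of each mouse. The fits were tested on simulated counts. Members with an unadjusted p under 0.05 were given with fold change and SE, and the 3 most alike genes of each were named. The members and gene lists were chosen with earlier results of these data known.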

Additional observations from a re-analysis of the deposited data

How the results depend on the processing

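In 123 alternative fits over the 7 comparisons, 0 members passed an adjusted p of 0.05. The lowest adjusted p was 0.335, for Slc18a3 in irisin-pretreated against control mice without control replicate 2. With the replicate number as a block, 0 members were called in any comparison. For mice of the same number, deviations from the group means over all tested genes had r near 0. It ran from -0.08 to 0.10 over 9 pairs and from -0.08 to 0.04 over 18 pairs. Mice of different numbers were not compared, so whether the numbers pair the mice is not settled. Across the alternatives the adjusted p of Slc18a3 ranged from 0.366 to 0.998 for irisin pre-treatment plus MPTP against MPTP and from 0.358 to 0.842 for irisin alone, and that of Chat from 0.890 to 1 for delayed irisin. DESeq2 gave the same 3 results an unadjusted p of 0.0111, 0.0153 and 0.0199. The number of correlated pairs depended on the method: against 2 of 45 pairs in the pre-treatment experiment, 4 passed on log2(FPKM + 1), 9 with group means removed, 0 by Spearman's rho and 2 without MPTP replicate 2. The last were Chat with Slc18a3 and, in place of Gad1 with Slc17a6 (adjusted permutation p = 0.108), Gad1 with Pvalb (r = -0.98, adjusted permutation p = 0.00893, against r = -0.62, adjusted permutation p = 0.222, with that mouse). Against 7 pairs in the delayed experiment, 8 passed on log2(FPKM + 1), 6 with group means removed, 0 by Spearman's rho and 5 without irisin-alone replicate 2. The cause of these differences was not tested. Deviations from a group mean sum to 0 within the group but were permuted freely over all mice. The counts with group means removed are therefore not on the same footing as the others. Confidence limits stayed wide for Slc17a8 and Slc5a7 in both experiments and for Slc17a7 in the pre-treatment experiment.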
